A study of Mus musculus with 12 samples.

Results

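The question addressed here is whether the transcriptional response of mouse peritoneal macrophages to antibody-coated platelets depends on Ern1, the gene of the endoplasmic reticulum stress sensor IRE1α. All 12 libraries of the series were used, 3 in each of 4 groups. Donor mice were male and 8 weeks old. Their macrophages were collected 3 days after 3% Brewer thioglycolate, an irritant that draws such cells into the cavity, had been injected into the peritoneum. Mice labelled Ern1fl/fl carried the floxed gene without a stated Cre and are called WT as in the library names. Mice labelled Mac-Ern1KO are called KO, and the sources used here do not name the promoter that drives the deletion. In each genotype a group labelled R300 had been cultured for 2 hours with platelets coated with R300, an antibody against the platelet glycoprotein CD42, and a group labelled Blank and Con served as its control. Whether the control cells received uncoated platelets or none is not stated, so the response measured is to coated platelets against that control.

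IRE1α sits in the endoplasmic reticulum membrane and is activated when unfolded proteins accumulate. It splices the Xbp1 mRNA, which then encodes a transcription factor for chaperones and secretory machinery, and it can also cleave other mRNAs. Macrophages take up antibody-coated platelets through Fc receptors and degrade them in lysosomes, a route by which platelets are cleared in immune thrombocytopenia. Platelets carry and release adenine nucleotides, growth factors and lipid mediators, several of which act on macrophages through receptors that set cyclic AMP.

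The measure of genotype dependence was the response in KO minus the response in WT, on the log2 scale, so that a positive value means a response shifted upward in KO. No gene passed the test of that difference among 16546 genes tested, and genes that responded had similar estimated folds in both genotypes. Crem, Nr4a2, Vegfa, Thbs1 and the miR-132 precursor were among the strongest shared responders, and the potassium channel gene Kcnj2 fell most among genes that passed in both genotypes.

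Among the shared responders was one microRNA gene, Mir132, whose products are known to be induced through CREB, the transcription factor activated by cyclic AMP. Its 2 mature strands are shown because the counted gene is a short hairpin, so that a reader can see what the locus encodes. They are RefSeq sequences on GRCm38.p6, written 5′ to 3′, with the seed (bases 2 to 8) in capitals, at chr11:75173723-75173744 (+) for the 3p strand and chr11:75173686-75173707 (+) for the 5p strand.
miR-132-3p: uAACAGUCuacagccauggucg
miR-132-5p: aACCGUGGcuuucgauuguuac
The libraries were made from poly(A)-selected RNA, so the counts at this gene are of precursor transcript and not of the mature 22-base strands. The hairpin lies at chromosome 11, 75173682 to 75173747 on the plus strand (GRCm38, GENCODE M21). It is inside the span of the noncoding gene 1700016P03Rik, at 75172560 to 75177633 on the same strand.

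The promoters of 2 further shared responders are shown for their copies of TGACG, the core letters of the short site that CREB-family factors bind. Each is the 250 bases before the RefSeq start on GRCm38.p6, 5′ to 3′ on the gene's strand, with every TGACG or its reverse complement CGTCA in capitals. Nr4a2, which encodes an orphan nuclear receptor of the immediate early class, has its promoter at chr2:57124004-57124253 (-).
Nr4a2 promoter: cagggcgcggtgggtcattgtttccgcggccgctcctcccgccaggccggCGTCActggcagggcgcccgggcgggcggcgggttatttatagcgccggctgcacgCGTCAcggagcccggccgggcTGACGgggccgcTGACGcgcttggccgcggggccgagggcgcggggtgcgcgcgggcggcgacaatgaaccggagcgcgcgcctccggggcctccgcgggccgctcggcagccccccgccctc
B3gnt5, which encodes a glycosyltransferase of glycolipid synthesis, has its promoter at chr16:19759984-19760233 (+).
B3gnt5 promoter: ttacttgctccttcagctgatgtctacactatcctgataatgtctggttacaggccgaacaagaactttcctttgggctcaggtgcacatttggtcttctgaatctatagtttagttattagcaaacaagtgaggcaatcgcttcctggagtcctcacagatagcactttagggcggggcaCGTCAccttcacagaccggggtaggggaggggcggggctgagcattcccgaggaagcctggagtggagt
The Nr4a2 window holds 4 such sites, whose first bases lie 200, 144, 123 and 111 bases before the start. At least 4 were found in 45 of 32851 promoters of the RefSeq table (0.137%). The B3gnt5 window holds 1 such site, 69 bases before the start, which overlaps a match to ACGTG, the core letters of the hypoxia element. At least 1 such site was found in 17.8% of all promoters. Both promoters were picked after their motifs were seen, and a match of letters is no evidence that a factor binds there.

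The 12 libraries held 21765586 to 44273655 counts. Each group contained 1 library without transcript of Xist, the RNA of the inactive X chromosome (at most 0.0739 CPM, counts scaled to equal library totals), while the other 8 libraries held 144 to 596 CPM although the labels give male mice. Summed Y-linked transcripts were 206 to 223 CPM in the 4 libraries without Xist and 43.0 to 163 CPM in the others. Those without Xist are the third control library of each genotype (Blank WT 3, Blank KO 3), R300 WT 2 and R300 KO 3. Values within each set of libraries are given below for some results. Among the libraries with Xist, its level was 147 and 430 CPM in the WT control and 144 and 169 in WT with platelets. It was 596 and 464 in the KO control and 548 and 570 in KO with platelets. Their Y-linked sums were, in the same order, 149 and 69.3, 163 and 151, 43.0 and 71.7, and 47.4 and 48.5 CPM. The response in KO minus that in WT was 0.99 log2 units for Xist. Its median was -0.29 for Y-linked genes, with 0 of 4 positive. A pair of libraries in each R300 group was closer than the rest: R300 WT 1 and 3 had a median chi-square per gene of 1.38 and R300 KO 1 and 2 of 1.53. Other pairs within a group ranged from 6.14 to 10.1, and sampling alone gives 0.455. The near-alike pairs were kept as separate replicates, as labelled. A value above that of sampling does not show that the libraries of a pair came from different cells. Macrophage identity genes summed to between 28577 and 43659 CPM in every library, 36743 to 43659 in WT and 28577 to 33971 in KO. Platelet markers summed to 174 to 240 CPM in the WT control, 238 to 254 in WT with platelets, 220 to 257 in the KO control and 256 to 266 in KO with platelets. The defining platelet genes Gp5, Gp6 and Gp9 were at most 0.48 CPM in any library. None of the 13 platelet markers tested was called in any comparison, while 2.43% of all genes tested rose and 1.21% fell in the mean response. In such bulk samples, fewer cells of a type and less RNA per cell cannot be told apart.

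Ern1 itself did not mark the KO libraries. The WT control libraries had 113, 117 and 94.1 CPM and the KO control libraries 149.8, 155 and 116. With platelets the values were 204, 138 and 205 in WT and 235, 225 and 174 in KO. The KO libraries were not lower in either condition. These are counts over the whole gene (chromosome 11, 106394650 to 106487852, minus strand), so a deletion of some exons that leaves the transcript in place would not be seen in them, and they do not check the label. Ern1 rose with platelets in the mean of both genotypes, by 1.59-fold (edgeR quasi-likelihood test with Benjamini-Hochberg adjustment over all genes, adjusted p = 0.0157). The separate folds were 1.69 in WT (adjusted p = 0.136) and 1.51 in KO (adjusted p = 0.244). The mean call was lost without R300 WT 1 (adjusted p = 0.0543), R300 WT 3 (0.0517), R300 KO 1 (0.0532) or R300 KO 2 (0.0595). The difference of the Ern1 responses was -0.16 ± 0.26 (SE), with a 95% interval of -0.73 to 0.40.

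Across all genes, the test of the difference of responses called none, in 0% of 16546 genes, with a smallest adjusted p of 0.99996 (edgeR, Benjamini-Hochberg). At an unadjusted p under 0.05 there were 95 genes (0.574%), where evenly spread p-values would give 827. DESeq2 also called 0, with 97 genes under 0.05 unadjusted. In the same fit the mean of both responses called 603 genes, of which 402 rose (2.43% of genes tested) and 201 fell (1.21%). When libraries were scaled by their totals only, 684 genes were called for the mean response and 339 of them were higher. The WT response alone called 91 genes as higher (0.55%) and 12 as lower (0.0725%). The KO response alone called 115 as higher (0.695%) and 23 as lower (0.139%). With DESeq2 the higher share of calls was 73.0% in WT and 70.4% in KO, against 88.3% and 83.3% with edgeR. In the mean response the higher share was 58.2% with DESeq2 and 66.7% with edgeR, and in KO with library totals it was 72.9%. The p-values of the difference were not evenly spread but piled up near 1, with 1439 genes above 0.95. The median absolute difference was 0.126. The median SE of the difference was 0.356, against 0.252 for either response and 0.178 for their mean, so the difference is the least precisely measured of the 4 quantities.

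**Figure D1:**
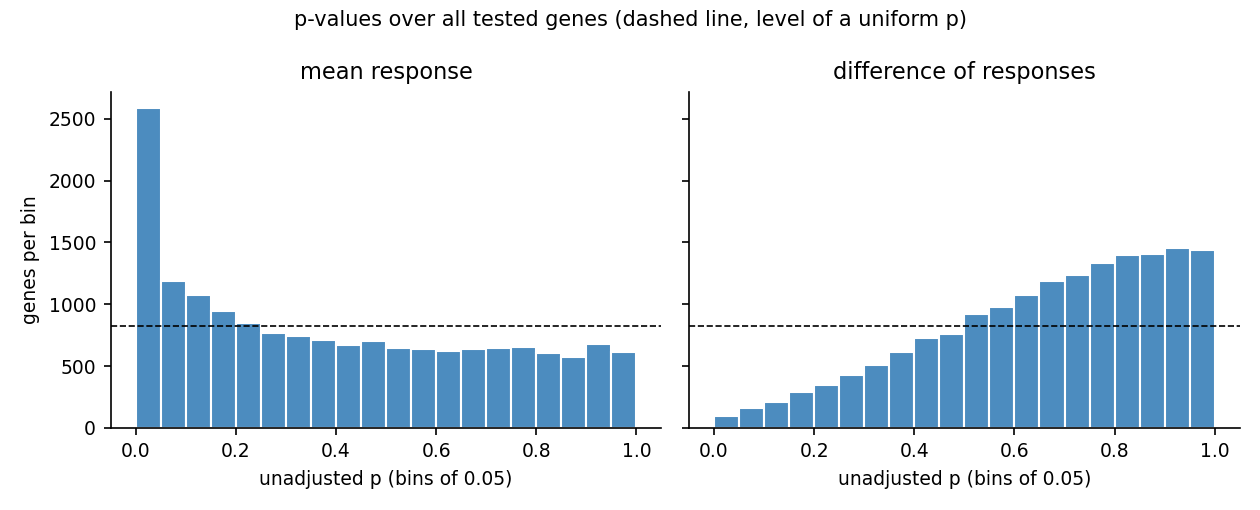
Number of genes (vertical axis) by unadjusted p (horizontal axis, bins of 0.05) for the mean response of both genotypes and for the difference of responses, over the 16546 genes tested, with a dashed line at the level of evenly spread p-values. The mean response has 2587 genes in the lowest bin, and the difference has 95 there and 1439 in the highest bin.

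What the data could exclude was therefore read from the intervals. Because the p-values of the difference piled up near 1, the 95% level of these intervals is not assured. The median SE of the difference was 0.356 here. It was 0.282 with a term for the libraries without Xist and 0.434 with near-alike libraries summed. The 95% interval of the difference lay within 1 log2 unit either way, that is within 2-fold, for 8708 of all genes tested (52.6%). Among the 603 genes called for the mean response it did so for 393 (65.2%). For 308 of those 603 (51.1%) both ends of the interval were closer to 0 than the mean response was, against 309 of all genes tested (1.87%). Choice by the mean response favours this. In the remaining genes of the 603 the interval did not exclude a genotype difference as large as the response.

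The 2 responses, which share no library, agreed gene by gene. Over all genes tested, the log2 responses in WT and KO had a Pearson correlation of 0.676 and a Spearman correlation of 0.615 across genes, and 12296 genes (74.3%) had the same sign. Over the 14006 genes averaging 20 or more counts the correlations were 0.791 and 0.703. Genes not called for the mean response had a correlation of 0.582. For the 603 called genes it was 0.960, a value that the choice of genes partly fixes. Genes are not independent replicates, and each correlation also carries what libraries of a group share. Libraries also varied together across genotypes. Deviations from the group mean correlated at 0.514, 0.535 and 0.558 for control libraries of the same number and at -0.366 to -0.158 otherwise. Between R300 libraries of the 2 genotypes they ranged from -0.599 to 0.642. The part of this in the agreement of the responses was not tested. With no filter on low counts the Pearson correlation was 0.119, and without R300 KO 2 it was 0.521. Over the 14006 genes averaging 20 or more counts it was 0.624 within the 4 libraries without Xist and 0.75 within the 8 with Xist, against 0.791 for all 12. Over all genes tested, a fit of the 8 libraries with Xist gave 0.619, against 0.676 for all 12.

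**Figure D2:**
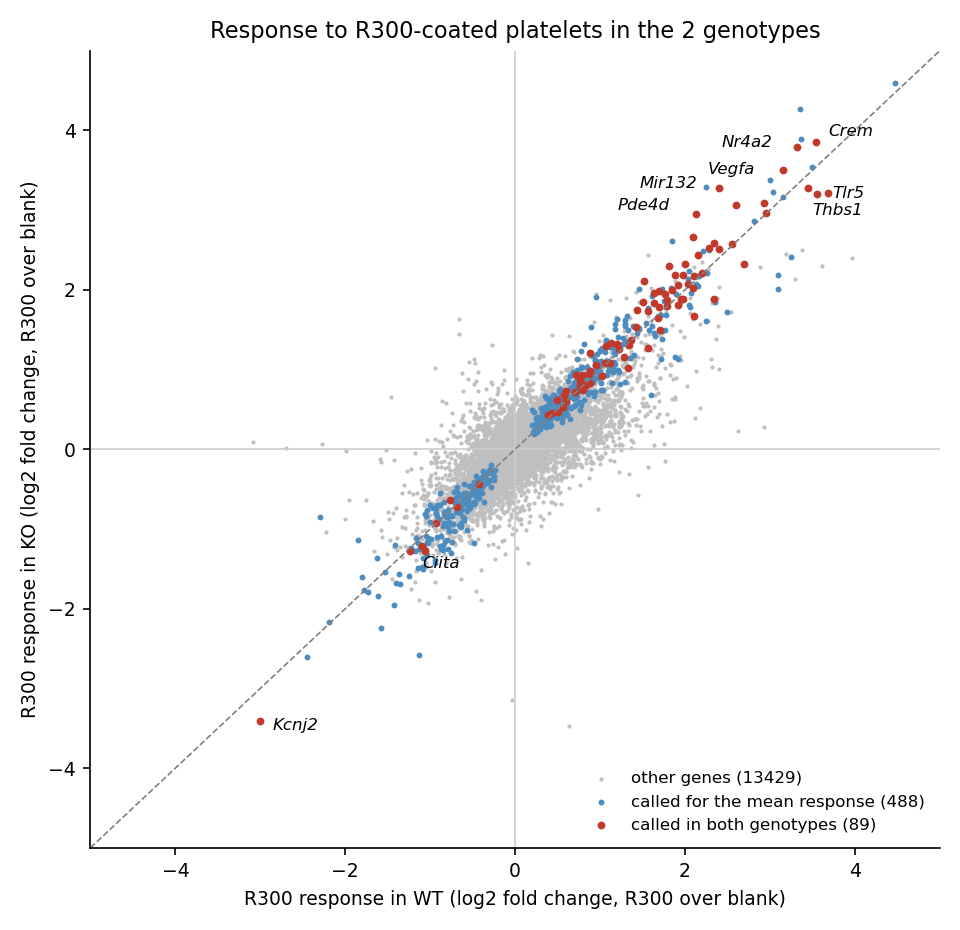
Log2 response to coated platelets in WT (horizontal) and KO (vertical) for the 14006 genes averaging 20 or more counts, with genes called in both responses and genes called for the mean response only marked. The 89 genes called in both lie along the line of equal response, and none is called in opposite directions.

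The size of the response was likewise similar. Among the 603 genes called for the mean response, the median absolute log2 response was 0.80 in WT and 0.85 in KO, and the median ratio of the KO to the WT response was 1.06. The median absolute difference was 0.114, against 0.126 over all genes tested, with intervals that reached a median of 0.623 to either side. The response was further from 0 in KO for 400 of the 603 genes (66.3%). That share depended on single libraries: it was 31.7% without R300 WT 2, 50.4% without Blank WT 3 and 75.2% without R300 KO 3, so its direction turned with a single library. The difference of responses did not repeat between the library sets. Its values in the set without Xist and in the set with Xist had a correlation of -0.067 across genes, while the mean responses of the 2 sets had one of 0.526.

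Both responses called 89 genes in the same direction, 81 of them higher and 8 lower, and none in opposite directions. They are 86.4% of the WT calls and 64.5% of the KO calls. In all 89, as their choice by adjusted p in each genotype largely fixes, the R300 libraries did not overlap the control libraries in either genotype. The differences of their responses ran from -0.46 for 1700016P03Rik to 0.88 for Mir132, with a lowest unadjusted p of 0.0989 for Arrdc3 (genes at these ends were named after their values were seen). The WT and KO folds were within 1.5 times of each other for 86 of the 89, and the largest ratio was 1.84. The interval excluded a ratio beyond 2-fold for 60 genes and beyond 1.5-fold for 32. For all 89 both ends of the interval were closer to 0 than the mean response, against 309 of all genes tested (1.87%). Choice of the 89 by a call in each genotype largely fixes this and also favours folds that are alike. The 14 highest and the 7 lowest of the 89 with a gene name and 20 or more counts on average are described next, by what they are known to do. All 21 were called for the mean response without each of the 12 libraries in turn, with a highest adjusted p of 0.0102. The separate calls in both genotypes were less stable, and 9 of the 21 kept both calls without each library in turn.

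Several regulators tied to cyclic AMP rose. Crem, which had the highest mean fold of the 21 leading genes, encodes a CREB-family transcription factor whose inducible form represses cyclic AMP-driven genes. It had 5.36, 5.55 and 5.45 CPM in the WT control libraries, 76.1, 36.3 and 77.7 in WT with platelets, 7.45, 5.31 and 5.57 in the KO control and 107, 110.4 and 47.6 in KO with platelets. In both genotypes the lowest library with platelets, the one without Xist, was still far above every control library. Crem rose 11.6-fold in WT and 14.5-fold in KO (edgeR adjusted p = 0.00141 and 8e-04), with a difference of 0.32 and a 95% interval of -0.73 to 1.37. Pde4d, a phosphodiesterase that breaks down cyclic AMP, had 3.59, 5.23 and 2.78 CPM in the WT control, 20.1, 10.8 and 20.3 in WT with platelets, 3.80, 3.10 and 2.40 in the KO control and 29.3, 29.8 and 12.7 in KO with platelets. Here too the libraries without Xist were the lowest of each R300 group, and the groups did not overlap. The folds of Pde4d were 4.39 and 7.72 (adjusted p = 0.0351 and 0.00515), and their difference of 0.81 had an interval of -0.33 to 1.96.

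Nr4a2 had 5.19, 6.98 and 6.75 CPM in the WT control libraries, 55.0, 79.2 and 55.0 in WT with platelets, 3.83, 5.18 and 6.58 in the KO control and 75.5, 68.9 and 72.8 in KO with platelets. The 6 libraries with platelets were all well above the 6 controls, and the KO libraries with platelets fell between the lowest and the highest WT library. It rose 9.96-fold in WT and 13.9-fold in KO (edgeR adjusted p = 0.000103 and 4.25e-05), and the difference was 0.48 with an interval of -0.15 to 1.11. Within the libraries with Xist the difference was 0.83, and within those without Xist it was -0.09, so even the sign of the Nr4a2 difference was not the same in the 2 library sets. The Mir132 hairpin shown above had 0.216, 0.130 and 0.297 CPM in the WT control, 1.10, 0.935 and 1.33 in WT with platelets, 0.150, 0.0462 and 0.164 in the KO control and 1.28, 1.38 and 0.858 in KO with platelets. The libraries with platelets overlapped between genotypes while the KO controls lay at the low end of the WT controls, at a mean count of only 20.3. Mir132 rose 5.28-fold in WT and 9.71-fold in KO (adjusted p = 0.0406 and 0.00838), the largest ratio of folds among the 89, with a difference of 0.88 and an interval of -0.54 to 2.29. The gene whose span holds it, 1700016P03Rik, was also called in both, and its fold was higher in WT, with 12.8-fold in WT and 9.32-fold in KO. Of its exonic bases 74.3% lie under Ovca2 on the opposite strand, and reads of the 2 genes cannot be told apart where strand was not kept.

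**Figure D3:**
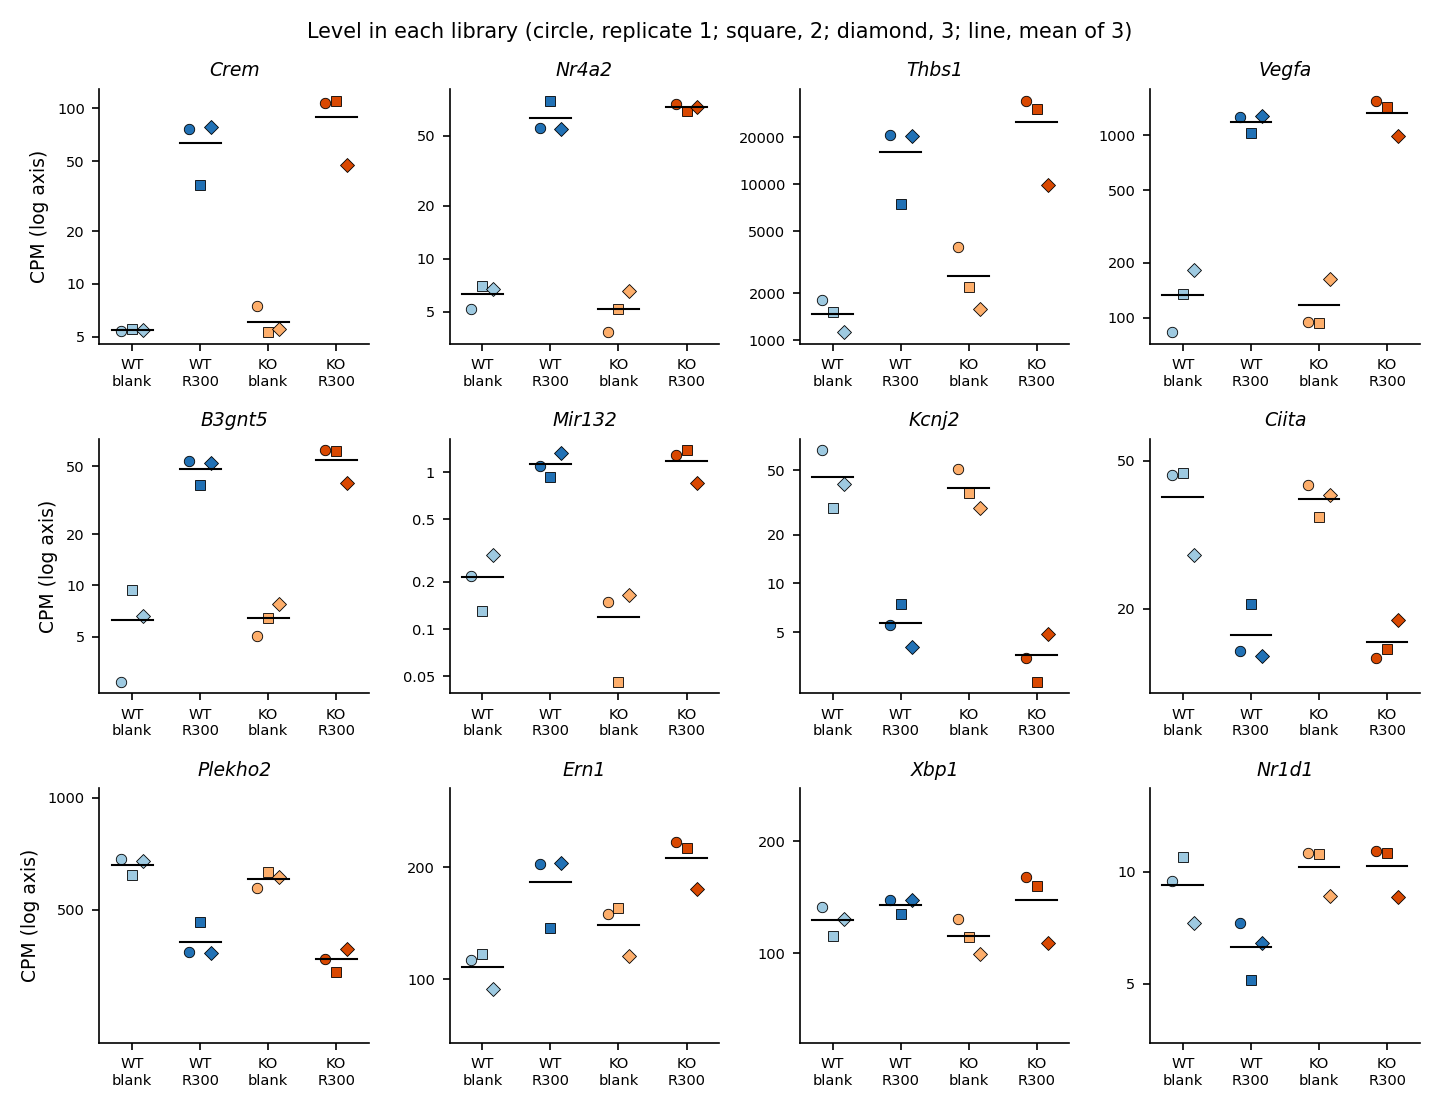
CPM (log axis) in each of the 12 libraries for shared responders, for 9 shared responders and for Ern1, Xbp1 and Nr1d1, by genotype and treatment (circle, replicate 1; square, 2; diamond, 3; line, mean of 3). For the 9 shared responders the control and platelet libraries do not overlap in either genotype, which their choice largely fixes. Each genotype reaches similar levels.

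Secreted factors and matrix genes formed another group. Thbs1 encodes thrombospondin 1, a matrix glycoprotein that binds platelets and apoptotic cells and activates latent TGF-β. It had 1802, 1511 and 1123 CPM in the WT control, 20706, 7452 and 20404 in WT with platelets, 3969, 2187 and 1579 in the KO control and 34492, 30485 and 9859 in KO with platelets. The KO means were higher in both conditions, but the genotypes overlapped, and the library without Xist was the lowest of each group. Thbs1 rose 10.9-fold in WT and 9.67-fold in KO (edgeR adjusted p = 0.0227 and 0.0236), and its difference of -0.18 had a wide interval of -1.77 to 1.41. Vegfa, the endothelial growth factor induced by hypoxia, had 83.2, 135 and 182 CPM in the WT control, 1261, 1027 and 1276 in WT with platelets, 94.2, 94.0 and 162 in the KO control and 1554, 1433 and 991 in KO with platelets. Every library with platelets held over 5 times the highest control library. The Vegfa folds were 8.91 and 11.4 (adjusted p = 0.00141 and 0.000719), with a difference of 0.35 and an interval of -0.57 to 1.27. Lrrc32 encodes GARP, which holds latent TGF-β at the cell surface, and rose 6.05-fold in WT and 8.36-fold in KO (adjusted p = 0.0149 and 0.00449), with an interval of the difference of -0.69 to 1.62.

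Receptors and surface glycolipid synthesis also responded. B3gnt5, whose promoter is shown above, had 2.72, 9.37 and 6.64 CPM in the WT control, 53.8, 38.6 and 52.4 in WT with platelets, 5.02, 6.4 and 7.81 in the KO control and 62.3, 61.3 and 40.0 in KO with platelets. The platelet libraries of both genotypes covered nearly the same range. Its folds were 7.65 and 8.50 (edgeR adjusted p = 0.00502 and 0.00285), and the difference was 0.15 with an interval of -0.94 to 1.25. That difference was 0.33 within the libraries with Xist and -0.17 within those without. Tlr5, the receptor for bacterial flagellin, went from 0.222 to 0.692 CPM in the WT control to 1.66 to 7.31 with platelets, and from 0.508 to 0.837 in the KO control to 2.99 to 7.36. These low levels gave folds of 11.8 and 9.19 (adjusted p = 0.0334 and 0.0357) and one of the widest intervals of the group, -2.16 to 1.44. Ramp3, a partner subunit of the adrenomedullin receptor, rose 6.48-fold in WT and 5.00-fold in KO, with an interval of -1.74 to 0.99.

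The remaining genes of the leading set that rose act in transcription, adhesion and ion handling. Mxi1, a partner of MAX that opposes MYC, had 47.7, 48.7 and 57.2 CPM in the WT control, 271, 243 and 265 in WT with platelets, 44.7, 37.9 and 61.0 in the KO control and 289, 281 and 293 in KO with platelets. All 6 libraries with platelets lay between 243 and 293 CPM, those without Xist included. Mxi1 rose 5.07-fold and 6.01-fold (edgeR adjusted p = 0.000103 and 4.25e-05), and its difference of 0.25 had an interval of -0.22 to 0.72, which excludes a 2-fold ratio. Cytip, an adaptor that binds cytohesin and limits leukocyte adhesion, rose 5.85-fold in WT and 5.95-fold in KO, with a difference of 0.02 and an interval of -0.78 to 0.82. Cbarp, a regulator of calcium channel β subunits, rose 7.77-fold and 7.80-fold with an interval of -0.83 to 0.84. Cnnm2, which acts in magnesium transport, rose 5.27-fold and 5.69-fold with an interval of -0.80 to 1.02.

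Genes that fell in both genotypes were led by Kcnj2, an inward-rectifier potassium channel that sets the resting membrane potential of macrophages. It had 66.4, 29.3 and 40.9 CPM in the WT control, 5.56, 7.48 and 4.06 in WT with platelets, 50.7, 36.2 and 29.0 in the KO control and 3.48, 2.48 and 4.89 in KO with platelets. The highest library with platelets was far below the lowest control. Its ratios to the control were 0.125 in WT and 0.0940 in KO (edgeR adjusted p = 0.00387 and 0.00164), and the difference of -0.41 had an interval of -1.5 to 0.68. Ciita, the transactivator of MHC class II genes, had 45.8, 46.2 and 27.8 CPM in the WT control, 15.4, 20.6 and 14.9 in WT with platelets, 42.9, 35.2 and 40.4 in the KO control and 14.7, 15.5 and 18.7 in KO with platelets. Over all libraries both genotypes moved between similar levels, with ratios of 0.425 and 0.413, a difference of -0.04 and an interval of -0.66 to 0.58. The Ciita difference was 0.23 within the libraries with Xist and -0.67 within those without, so its sign was not the same in the library sets. Plekho2, a pleckstrin-homology protein of macrophages, had 685, 622 and 677 CPM in the WT control, 386, 465 and 382 in WT with platelets, 573, 631 and 615 in the KO control and 369, 341 and 394 in KO with platelets. Its ratios were 0.621 and 0.607 and its interval, -0.36 to 0.30, was among the narrowest. Rassf4, a Ras-association domain protein, had ratios of 0.466 and 0.431. Tifa, an adaptor that activates NF-κB, had ratios of 0.525 and 0.528, and Akap10, an anchor of protein kinase A, had 0.587 and 0.645. Dse, an epimerase of dermatan sulfate synthesis, fell least, with ratios of 0.744 and 0.737 and an interval of -0.26 to 0.23.

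The other 68 genes called in both comprised 67 that rose and 1 that fell. Those that rose had WT folds between 1.31 and 12.8 and KO folds between 1.34 and 9.32. Of the 81 genes that rose in both genotypes 56 had an entry in the promoter table, and copies of TGACG were found in 27.0% of their 74 promoters, close to the 25.4% of 13955 promoters of all genes tested. The longer motif TGACGTCA, which contains TGACG, was found in 2.7% and 2.41% of the same sets and ACGTG in 27.0% and 21%. For genes of the mean response, TGACG was found in 32.0% of 381 promoters of those that rose and in 15.1% of 205 promoters of those that fell, and ACGTG in 26.2% and 16.6%.

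**Figure D4:**
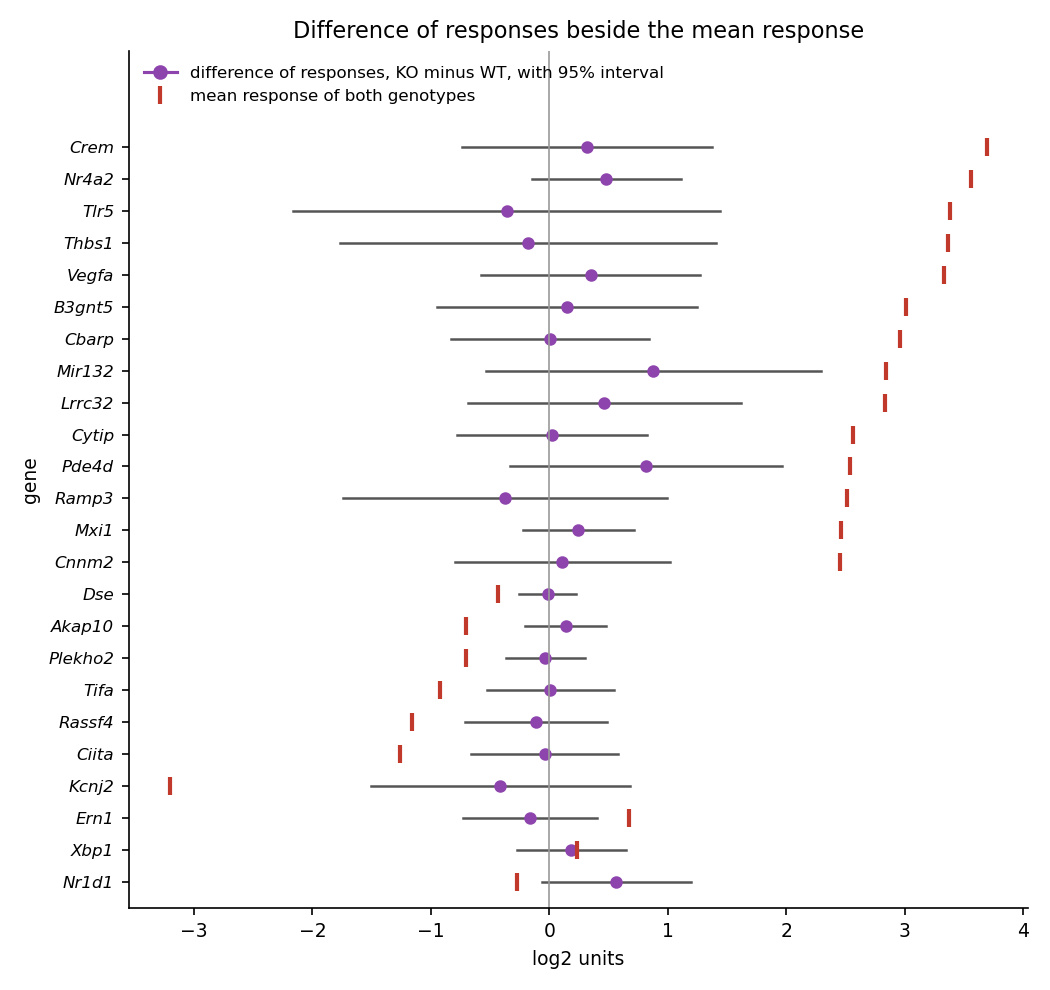
Difference of responses, KO minus WT, on the log2 scale (horizontal axis), for the 21 leading genes called in both genotypes and for Ern1, Xbp1 and Nr1d1. Points show estimates, bars unadjusted 95% intervals and short vertical marks the mean response. Every bar crosses 0, and for the 21 genes the mark lies outside the bar, which their choice by a call in each genotype largely fixes.

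A call in 1 genotype did not mean a response in that genotype alone. Only WT called 14 genes, and 13 of them had an unadjusted p under 0.05 in the same direction in KO. Only KO called 49 genes, and all 49 had an unadjusted p under 0.05 in the same direction in WT. All 63 were called for the mean response. The lowest unadjusted p of the difference was 0.0127 in the first set and 0.0257 in the second, and none passed after adjustment. The direction of the difference in these sets is fixed by their choice.

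The genes of lowest p called in WT only were led by Dcstamp, a fusion protein of osteoclasts and giant cells. Its libraries held 6.79, 6.51 and 9.64 CPM in the WT control, 26.0, 19.97 and 29.4 in WT with platelets, 5.02, 10.3 and 9.17 in the KO control and 18.1, 20.7 and 15.2 in KO with platelets. It was 3.29-fold in WT (edgeR adjusted p = 0.0182) and 2.2-fold in KO (0.0983), and the difference of -0.58 had an interval of -1.40 to 0.24. Slc15a2, a peptide transporter, was 3.32-fold and 2.62-fold, and Slc38a1, a glutamine transporter, was 1.43-fold and 1.35-fold. Errfi1, a feedback inhibitor of EGF receptors, was 4.12-fold and 3.51-fold with a KO adjusted p of 0.0521. The 5 of lowest p called in KO only were led by Zc3h12d, an RNase of the Regnase family, which had 13.5, 11.3 and 14.3 CPM in the WT control, 8.80, 7.79 and 9.18 in WT with platelets, 11.8, 11.7 and 12.7 in the KO control and 6.52, 6.48 and 6.52 in KO with platelets. Its groups did not overlap in either genotype, its ratios were 0.659 (adjusted p = 0.0835) and 0.539 (0.00915), and the difference was -0.29 with an interval of -0.69 to 0.11. Chp1, a regulator of sodium-proton exchange, was 1.35-fold in WT and 1.54-fold in KO. Vamp4, a SNARE of the trans-Golgi network, was 1.43-fold and 1.52-fold with a WT adjusted p of 0.0532. Wdr62, a centrosome and JNK scaffold protein, was 1.34-fold and 1.56-fold, and Lratd2 had ratios of 0.652 and 0.554.

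The genes with the lowest unadjusted p for the difference were mostly low in level and were not called for the mean response. Rps27rt, a retrogene of a ribosomal protein, had the lowest p, 0.00495. It held 20.8, 22.6 and 22.4 CPM in the WT control, 19.2, 23.6 and 24.2 in WT with platelets, 39.7, 41.4 and 28.5 in the KO control and 23.1, 23.8 and 19.5 in KO with platelets. The KO control libraries stood apart and the other 3 groups had similar levels. The difference was -0.75, with an interval of -1.22 to -0.28, and reads of a retrogene and its parent can be split by the counting. The pseudogenes Hspd1-ps3 and Rps18-ps3, with the same uncertainty, had differences of 1.41 and 1.58 (edgeR unadjusted p = 0.00712 and 0.00789, neither past adjustment). C4a, a complement component with a near-identical neighbour, had a difference of 1.63 (edgeR unadjusted p = 0.0103, not past adjustment), which was 2.08 within the libraries with Xist and 0.36 within those without.

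Il4, the cytokine of alternative activation, was near 1 to 3 CPM throughout. It held 1.56, 1.41 and 1.45 CPM in the WT control, 1.5, 1.18 and 1.15 in WT with platelets, 1.53, 1.5 and 1.09 in the KO control and 2.38, 2.58 and 1.88 in KO with platelets. The 3 KO libraries with platelets were the highest of the 12. Its difference was 0.93 with an interval of 0.19 to 1.67 (unadjusted p = 0.0187) and did not pass adjustment. Tmem38a, an intracellular potassium channel, had a difference of 1.16 and Mss51 one of 0.88 (edgeR unadjusted p = 0.0115 and 0.0249, neither past adjustment). Negative differences were estimated for Galnt12 (-1.23), Pgam5 (-0.34), Cmss1 (-0.81), Zfp931 (-0.91) and Spint2 (-1.22), with edgeR unadjusted p-values of 0.00954 to 0.0322 and none past adjustment. Among the 603 genes called for the mean response, 4 had an unadjusted p under 0.05 for the difference (0.663%, against 0.574% of all genes). They were Gm15568, Lzts1, Nptx1 and Rad51c, chosen after their values were seen, with mean counts of 35.8, 5.67, 12.4 and 17.7.

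Genes of the unfolded protein response, the pathway of the targeted sensor, had no difference of response past the test. Xbp1, the transcript that IRE1α splices, had 133, 111 and 123 CPM in the WT control, 139, 127 and 139 in WT with platelets, 123, 110.1 and 99.4 in the KO control and 160.3, 151 and 106 in KO with platelets. The genotypes overlapped in both conditions, and its folds of 1.10 and 1.25 did not pass (edgeR adjusted p = 0.889 and 0.566). The difference was 0.19 with an interval of -0.27 to 0.65, and gene counts do not tell spliced from unspliced Xbp1. None of the 49 tested targets of XBP1 was called in WT or in KO, and 1 was called for the mean response, Srprb, a subunit of the signal recognition particle receptor (1.21-fold, adjusted p = 0.0439). That call was lost in 10 of the 12 fits without 1 library. The median difference of these 49 was -0.02, and for 45 of them the interval lay within 1 log2 unit. None of the 15 chaperone genes of the ATF6 branch was called, with a median difference of -0.03. Of 16 mRNAs described as cleaved by IRE1α, 1 was called for the mean response and none in either genotype, with a median difference of -0.02. These 16 were measured less tightly, with differences from -2.21 to 0.57 and the interval within 1 log2 unit for 7. Of the 11 sensors and their partners Ern1 alone was called for the mean response. Over all genes tested the median difference was -0.006, and none was called for the difference. In WT 0.55% of them were called higher and 0.0725% lower, in KO 0.695% and 0.139%, and for the mean response 2.43% and 1.21%. So few calls in lists of this size are near those shares and are no result particular to this pathway.

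The ATF4 program, which serves the PERK branch and amino acid shortage, had 1 of 29 members that rose in the mean response and 3 that fell. Of all genes tested 2.43% rose and 1.21% fell in it. Ddit4, an mTOR inhibitor, rose, and Atf3, a stress-induced repressor, fell together with Chac1 and Nupr1. The median difference of the ATF4 program was -0.22 with 5 of 29 members positive. The value was -0.36 within the libraries with Xist and 0.02 within those without, and it was 0.12 without Blank KO 2.

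Genes of uptake and degradation had median differences near 0 that in part moved with 1 library. Of 36 genes of Fc receptor phagocytosis, none was called in WT or KO, 2 rose and 4 fell in the mean response, and the median difference was 0.005. Of all genes tested 0.55% rose in WT, 0.695% in KO and 2.43% in the mean response, where 1.21% fell. Arpc3, an actin-nucleating subunit, was 1.40-fold in WT and 1.48-fold in KO (mean response adjusted p = 0.00903), and Fgr, a Src-family kinase, was at 0.720 and 0.738 of the control (0.0125). The interval lay within 1 log2 unit for 33 of the 36. None of 47 lysosomal genes, 25 genes of the proton pump and its TFEB-family regulators and 31 autophagy genes was called in any comparison, with median differences of -0.05, -0.07 and 0.03. The interval lay within 1 log2 unit for 42 of the lysosomal, 16 of the proton pump and 30 of the autophagy genes. Without R300 KO 3 the lysosomal median was -0.22 and that of the proton pump list -0.28. The difference was positive in 15 of 47 lysosomal, 4 of 25 proton pump and 18 of 31 autophagy genes. Within the libraries with Xist the 3 medians were -0.10, -0.10 and 0.07. Within those without Xist they were 0.03, -0.001 and -0.04. Of 25 genes of efferocytosis and scavenging, Thbs1 and Clec7a, the β-glucan receptor Dectin-1, rose in both genotypes, and the interval lay within 1 log2 unit for 12 of the 25. Clec7a was 2.11-fold in WT and 2.45-fold in KO.

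Several inducible programs held genes that rose or fell in both genotypes. Of 27 genes tied to cyclic AMP and CREB, 7 rose in WT and 7 in KO, with medians of 1.17 and 1.18 and the same sign in all 27, and the median difference was 0.03. Of all genes tested 0.55% were called higher in WT and 0.695% in KO, and 74.3% had the same sign. Members and lists were chosen with earlier results of these data known, so counts of members called are no independent support. Of 32 immediate early genes, 4 rose in each genotype and 1 fell in KO, and Nr4a3, the third NR4A receptor, was 5.06-fold in WT and 3.68-fold in KO. Of 31 genes of glycolysis and hypoxia, Vegfa and Slc2a1, the glucose transporter GLUT1, rose in both, the latter 1.83-fold and 1.92-fold. Of 32 genes of the NRF2, heme and iron list, Gclc, of glutathione synthesis, rose 1.65-fold and 1.91-fold and Srxn1, which repairs peroxiredoxins, 1.70-fold and 1.81-fold. Their list had a median difference of 0.09 with 28 of 32 positive, and no member passed. The median was 0.11 with 27 of 32 positive within the libraries with Xist. Within those without Xist it was 0.01 with 18 of 32 positive. In the list of MHC class II presentation, Ciita fell in both genotypes, and Cd80, a costimulatory ligand, rose in the mean response (adjusted p = 0.00611), at 4.48-fold in WT and 4.5-fold in KO. Hsph1, a chaperone of the heat shock response, rose 1.63-fold and 1.64-fold.

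Cytokines varied too widely between libraries for the genotypes to be compared closely. Of 30 tested, 1 was called in KO, as higher, and none in WT, where 0.695% and 0.55% of all genes tested were called higher. Osm, which encodes oncostatin M, was 7.98-fold in WT and 10.4-fold in KO (mean response adjusted p = 0.00288), and Tnf was at 0.373 and 0.259 of the control (0.0178, lost in 4 of the fits without 1 library, up to 0.0600). The median difference of the list was -0.30, and it moved from -0.87 without Blank WT 2 to 0.44 without Blank KO 2.

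Interferon-response genes had the most one-sided differences among the lists of macrophage programs, but not in both library sets. None of the 32 tested was called in any comparison. Of all genes tested 2.43% were called higher and 1.21% lower in the mean response. The median response of the 32 was -0.02 in WT and -0.36 in KO. Their difference was negative in 31 of 32, with Isg20 the exception and a median of -0.28. Within the 8 libraries with Xist the median difference was -0.65 and 1 of 32 was positive, whereas within the 4 without Xist it was 0.17 and 28 of 32 were positive. It ran from -0.66 without R300 KO 3 to -0.04 without R300 WT 2. Single genes were measured with wide intervals, and only 3 of the 32 lay within 1 log2 unit. Gbp5, an interferon-induced GTPase, was at 0.473 of the control in WT and 0.352 in KO and did not pass.

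**Figure D5:**
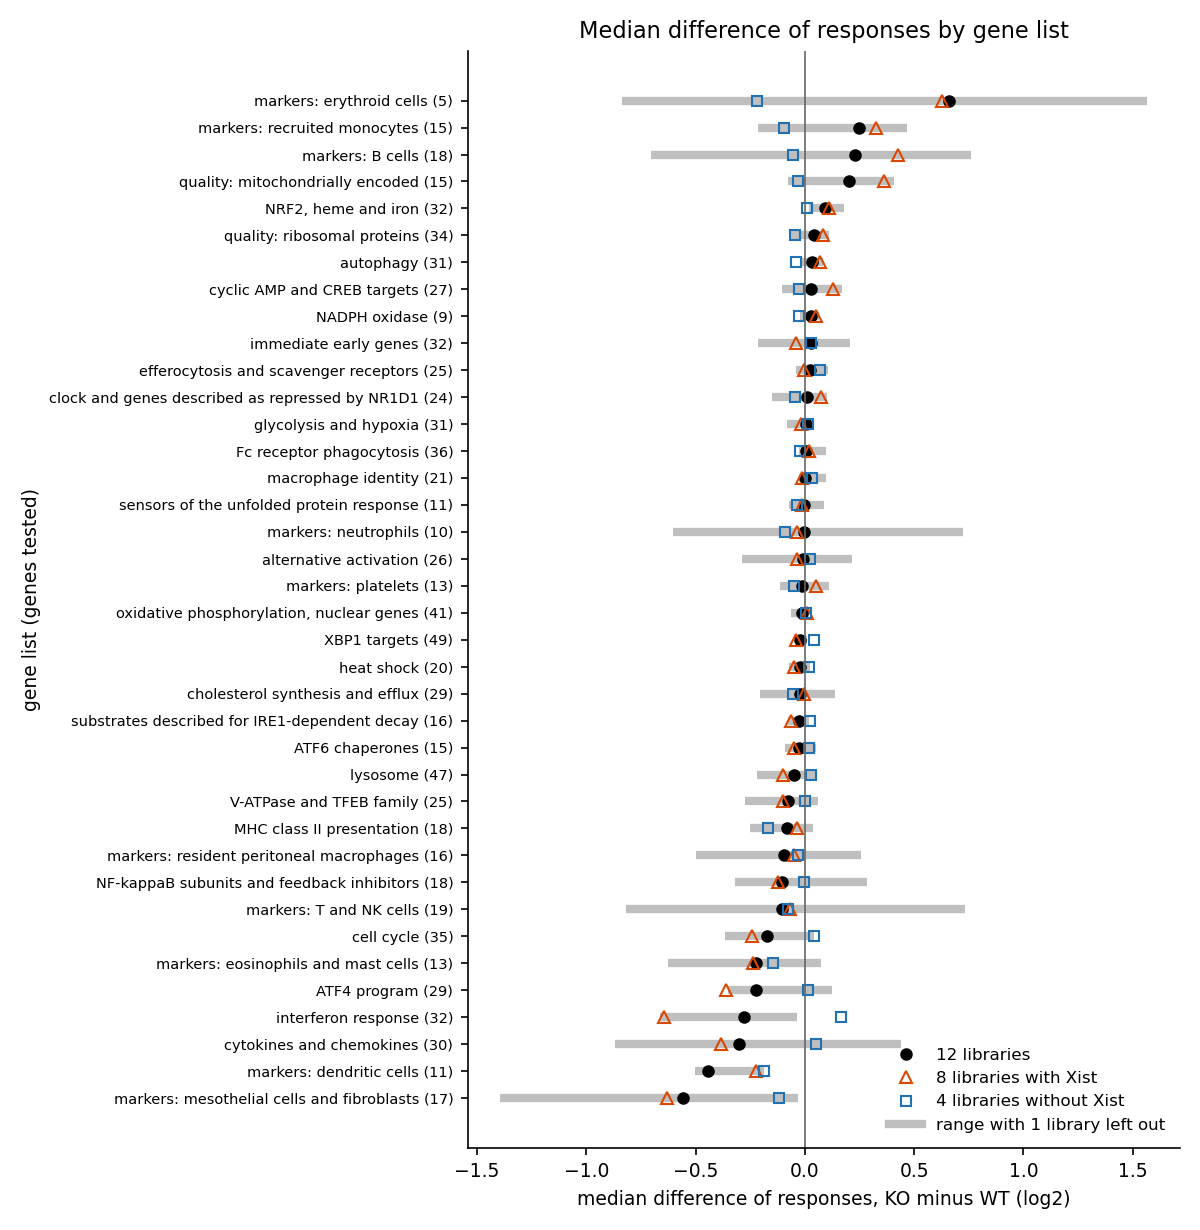
Median difference of responses, KO minus WT (log2, horizontal axis), of each gene list (genes tested in brackets), for all 12 libraries (filled circles), the 8 with Xist (triangles) and the 4 without (squares), with a grey bar for the range with 1 library left out. Lists of XBP1 targets, ATF6 chaperones, sensors of the unfolded protein response, lysosome and autophagy lie near 0 with all libraries. The ATF4 program, cytokines, interferon genes, dendritic cell markers and mesothelial markers are among those below 0. Interferon genes lie above 0 in the 4 libraries without Xist. The lists of Y-linked genes and of Xist are not drawn.

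Nr1d1, the clock repressor REV-ERBα, had unlike estimates in the genotypes that did not pass the test of their difference. It had 9.47, 10.9 and 7.30 CPM in the WT control, 7.28, 5.12 and 6.42 in WT with platelets, 11.2, 11.2 and 8.60 in the KO control and 11.4, 11.2 and 8.55 in KO with platelets. In WT the highest library with platelets lay just below the lowest control, and in KO the conditions overlapped. The ratios were 0.679 in WT (edgeR adjusted p = 0.42) and 1.01 in KO, and the difference was 0.57 with an interval of -0.06 to 1.2 (unadjusted p = 0.0739), so it did not pass. The estimate was 0.46 within the libraries without Xist and 0.59 within those with Xist, and it stayed between 0.42 and 0.71 without each library in turn. Of the exonic bases of Nr1d1, 8.55% lie under Thra on the other strand. Of 24 clock genes and genes described as repressed by NR1D1, 1 rose in WT and 1 in KO (of all genes tested, 0.55% and 0.695%). The median difference was 0.008. That gene was Nfil3, a clock-linked repressor that also responds to cyclic AMP, which rose 4.61-fold and 4.65-fold.

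Several lists of cell markers and the mitochondrially encoded genes had median differences that moved with single libraries or between the library sets. Mesothelial and fibroblast markers had a median difference of -0.56 over 17 genes, with 1 positive. They summed to 178 to 749 CPM in the WT control, 225 to 1590 in WT with platelets, 407 to 537 in the KO control and 412 to 939 in KO with platelets. The median was -1.39 without Blank WT 1 and -0.03 without R300 WT 3. Mitochondrially encoded genes had a median difference of 0.20, with all 15 positive, which was 0.36 within the libraries with Xist and -0.03 within those without. B cell markers had a median difference of 0.23, which was -0.70 without Blank WT 2 and 0.76 without Blank KO 2. Among the lists of cell markers the largest median difference was that of the erythroid markers, 0.66 with all 5 positive, which was -0.84 without Blank WT 2 and 1.57 without Blank KO 2. The erythroid median was 0.63 with all 5 positive within the libraries with Xist. Within those without Xist it was -0.22 with 2 of 5 positive, at sums of 2.62 to 10.2 CPM. Dendritic cell markers had a median difference of -0.44, with 3 of 11 positive, which was -0.50 without Blank KO 3 and -0.19 without R300 WT 3. Eosinophil and mast cell markers had a median difference of -0.22, with 2 of 13 positive, which was -0.63 without Blank WT 2 and 0.07 without Blank KO 2. All 13 of the latter had the same sign of response in both genotypes, with medians of 1.00 in WT and 0.68 in KO. Their sums were 24.4 to 67.3 CPM in the WT control, 72.1 to 91.1 in WT with platelets, 43.6 to 109 in the KO control and 73.0 to 162 in KO with platelets. The 21 macrophage identity genes had a median difference of 0.00, and none was called in WT or KO, where 0.55% and 0.695% of all genes rose. Across every list the unadjusted p of the difference was under 0.05 for 1 member, as it was for 0.574% of all genes tested. The part of these markers in the differences of other genes was not tested.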

How the data were processed

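Poly(A)-selected RNA of 12 libraries (3 per group) was analysed. The deposited values are raw read counts per gene, and the submitters' processing notes name fastp 0.23.4, HISAT2 2, featureCounts 2.0.3, DESeq2 1.42.0 and build mm10, without roles. Strandedness of counting is not given in the sources used here. Of 35050 table entries, 102 had no symbol (0.0232% to 0.0328% of counts) and were left out. edgeR 4.0.16 (R 4.3.3) tested 16546 genes passing filterByExpr, with TMM scaling, one mean per group over all 12 libraries, a robust quasi-likelihood fit and Benjamini-Hochberg adjustment; genes are called at adjusted p under 0.05. Contrasts were each response, their mean and their difference. CPM use TMM-scaled totals. Intervals are unadjusted 95%. The scripts were tested on simulated data.

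The labels call the libraries biological replicates. p-values measure the spread between these libraries, and the near-alike pairs noted in the report would make them too small if they shared cells. The p-values of the difference instead piled up near 1. Genes were named by rule: Ern1, Xbp1 and Nr1d1, the 14 highest and up to 8 lowest mean responses called in both genotypes, the 5 lowest p called in one genotype only, the 6 lowest p of the difference in each direction, and the 2 lowest p of each list described. List members beyond those 2 were named after their values were seen. One gene that the rule selects is not reported here. The members and lists were chosen with earlier results of these data known. Alternatives were DESeq2, other scalings, no filter, a minimum fold of 1.5, a replicate block, terms or subsets by Xist, near-alike libraries summed, only the 2 groups compared, and each library left out. Added after seeing the data were a fit of 10 libraries (without Blank WT 2 and Blank KO 2) with the Xist term, and the counts of genes at unadjusted p under 0.05, of genes larger in KO and of list medians under each alternative.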

Additional observations from a re-analysis of the deposited data

How the results depend on the processing

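The difference of responses called 0 genes under all 22 alternatives, with 38 to 350 genes at an unadjusted p under 0.05. With DESeq2 the calls were 363 in WT, 442 in KO, 1222 for the mean response and 280 in both, with 60.6% larger in KO. Without a filter on low counts, 350 genes had a difference at unadjusted p under 0.05, the correlation of responses was 0.119 and 60.5% were larger in KO. Against a minimum fold of 1.5 there were 38 such genes, and calls of 31 in WT, 39 in KO, 90 for the mean and 29 in both. A term for the libraries without Xist gave 166 such genes, 347, 450, 1492 and 292 calls in the same order, and 59.6%. The 8 libraries with Xist gave 150 genes, 242, 290, 1004 and 196 calls, and 59.0%. The 10 libraries with the Xist term, chosen after seeing the data, gave 229 genes and 775, 1051, 2539 and 652 calls. Summing near-alike libraries gave 39 genes and 27, 35, 158 and 26 calls, and Ern1 then had an adjusted p of 0.149 for the mean response. Fits of only the 2 groups compared gave 41 calls in WT and 43 in KO. The cause of these changes was not tested.

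Leaving out each library in turn gave 70 to 207 genes at unadjusted p under 0.05 for the difference, 32 to 135 calls in WT, 45 to 171 in KO, 308 to 852 for the mean and 31 to 97 in both. The lowest counts came without R300 WT 1 (32 in WT, 308 for the mean) and without R300 KO 1 or 2 (45 in KO). The correlation ranged from 0.521 to 0.629 and the share larger in KO from 31.7% to 75.2%. Of the 89 genes called in both, 30 kept both calls throughout, and of the 603 called for the mean, 287 did. No named gene reversed a called direction.

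Replicate numbers are shared between groups but do not pair the libraries of all 4: same-number deviations had correlations of -0.599 to 0.608, 10 of 18 pairs were above 0.1, and 6 of 12 libraries correlated best with their own number. The control libraries did go by number across genotypes (0.514, 0.535 and 0.558 for the same number, -0.366 to -0.158 otherwise), which is a hint from the data, and the R300 libraries did not. With the replicate block 0 genes were called for the difference, 98 had an unadjusted p under 0.05, calls were 119 in WT, 141 in KO, 667 for the mean and 102 in both, the correlation was 0.674 and 62.4% were larger in KO.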

Other observations

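Some genes of the marker lists and of other programs also passed in both genotypes or in the mean response, with similar folds. Gata2, a transcription factor of mast cells and blood progenitors, was 4.29-fold in WT and 4.06-fold in KO (edgeR, both called), with a difference of -0.08 and a 95% interval of -0.74 to 0.59. Ccr7, the chemokine receptor that guides cells to lymph nodes, was 3.26-fold and 2.83-fold (both called), with an interval of -1.12 to 0.71. Cdkn1a, the cell cycle inhibitor p21, was 1.99-fold and 2.06-fold (called in KO and for the mean response), with an interval of -0.57 to 0.66. All 3 kept the call for the mean response without each library in turn. Cx3cr1, the fractalkine receptor of monocytes, was at 0.324 of the control in WT and 0.387 in KO (mean response adjusted p = 0.0203), a call lost in 4 of 12 fits without 1 library. Abca1, a cholesterol exporter, was 2.00-fold and 2.37-fold (mean response adjusted p = 0.0226), a call lost in 8 of 12. Gata2 is a marker in the list of eosinophils and mast cells, whose summed levels are given in the report. In that list 3 of 13 tested members rose in the mean response (Gata2, Tpsb2 and Mcpt4, the last named after its values were seen). Of all genes tested 2.43% rose in it. Ccr7 is one of 11 dendritic cell markers, of which it alone was called. The part of these cells in the rise of Gata2 and Ccr7 was not tested.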
